A study of Mus musculus with 5 samples.

Results

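In alveolar macrophages (AMs), which live in the airspace of the lung, RXRα-bound regions more than 100 kb from any protein-coding gene start were described. Peaks of the WT A and WT G libraries were merged where they overlapped by at least 1 bp, and 3423 of 10461 merged regions held a peak of both. The members are the 297 of these 3423 regions (8.68%) whose midpoint lay beyond 100 kb from the nearest transcription start site (TSS) of a protein-coding gene, in mm10 coordinates and GENCODE annotation. The files were peak lists called for each library by HT-ChIPmentation, a chromatin immunoprecipitation in which the sequencing library is made on the beads by tagmentation. AMs were obtained by bronchoalveolar lavage of 9-week-old mice and sorted by flow cytometry, and libraries were made from 200000 cells. WT A and WT G came from CD11cCre- Rxrabfl/fl mice, in which Rxra and Rxrb are floxed but Cre is lacking. KO A and KO G came from CD11cCre+ Rxrabfl/fl mice, in which Cre is expressed under Cd11c control, so that both receptor genes are recombined in CD11c-expressing cells, AMs among them. Peak lists hold no expression values, so the labelled cell type could not be checked against its marker genes. Peaks had been called against an input sample. The labels do not say whether A and G were separate animals, so any spread given here is the spread between these libraries.

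RXRα is a nuclear receptor that binds DNA as a dimer, alone or with a partner such as a PPAR, LXR or RAR receptor. The dimer contacts 2 copies of the hexamer AGGTCA, and the number of bases between the copies favours one partner over another. A direct repeat with 1 base between the hexamers (DR1) is the classical element of RXR homodimers and of PPAR-RXR heterodimers, DR4 that of LXR-RXR and DR5 that of RAR-RXR. In macrophages, nuclear receptors bind mainly at enhancers, regulatory segments that can lie far from the gene they act on and that are opened by lineage factors such as PU.1, C/EBP, AP-1 and RUNX proteins. An enhancer can skip the nearest gene, so the gene named with each region below is its nearest one and not a measured target.

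At the sequence level, 12 of the 19 DR1 matches among the far regions are shown first, those with the fewest mismatches and then the strongest, apart from 1 that is not printed, because DR1 is the element that RXR itself is known to read. The 12 windows hold the 101 bases around the summit of the strongest WT peak, on the + strand of the mouse reference genome (GRCm38, the assembly of mm10), with the DR1 match in capitals. A match on the other strand appears as its reverse complement. The first 4 differ from the repeat at 1 of the 12 hexamer positions, and the others at 2.
region near 4933412E24Rik, chr15:59866628-59866728: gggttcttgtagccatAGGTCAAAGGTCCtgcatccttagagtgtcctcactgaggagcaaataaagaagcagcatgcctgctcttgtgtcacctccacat
region near Trps1, chr15:50664766-50664866: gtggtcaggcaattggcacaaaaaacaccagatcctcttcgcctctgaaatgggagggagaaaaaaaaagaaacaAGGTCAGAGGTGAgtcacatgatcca
region near Bcl2l14, chr6:134240590-134240690: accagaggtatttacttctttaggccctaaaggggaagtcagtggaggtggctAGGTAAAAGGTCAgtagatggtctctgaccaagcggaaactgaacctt
region near Sox4, chr13:28613867-28613967: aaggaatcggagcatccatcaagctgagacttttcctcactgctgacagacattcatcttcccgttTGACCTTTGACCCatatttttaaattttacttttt
region near Ext1, chr15:53138990-53139090: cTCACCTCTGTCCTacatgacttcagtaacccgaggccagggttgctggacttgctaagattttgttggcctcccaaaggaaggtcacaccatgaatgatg
region near Nrip1, chr16:76531074-76531174: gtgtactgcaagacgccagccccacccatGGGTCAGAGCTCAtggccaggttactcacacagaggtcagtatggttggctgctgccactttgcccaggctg
region near Cradd, chr10:95180340-95180440: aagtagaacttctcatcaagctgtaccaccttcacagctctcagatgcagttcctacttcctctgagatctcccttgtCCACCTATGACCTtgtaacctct
region near Pik3r1, chr13:101540455-101540555: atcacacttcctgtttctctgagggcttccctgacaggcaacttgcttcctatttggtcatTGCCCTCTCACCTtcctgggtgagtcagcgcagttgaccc
region near Prdm1, chr10:44702273-44702373: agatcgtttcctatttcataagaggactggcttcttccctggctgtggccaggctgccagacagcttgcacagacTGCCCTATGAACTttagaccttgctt
region near Auh, chr13:52822732-52822832: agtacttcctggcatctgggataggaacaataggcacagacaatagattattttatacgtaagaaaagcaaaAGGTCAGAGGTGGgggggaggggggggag
region near Mllt3, chr4:87554462-87554562: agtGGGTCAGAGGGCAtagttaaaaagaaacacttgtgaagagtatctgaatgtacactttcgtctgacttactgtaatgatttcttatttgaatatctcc
region near Nrip1 (second), chr16:76538039-76538139: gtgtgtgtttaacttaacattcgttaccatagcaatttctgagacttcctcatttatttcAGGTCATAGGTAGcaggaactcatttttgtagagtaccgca

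The strongest far regions with an ordinary local background are shown next. They rank highest in WT among such regions and yet mostly hold other letters than a DR1. The regions near Esp38 and Gm8797, which ranked 1 and 2, had a local background over 3 times the genome-wide level and are not printed. In the same 101-base windows, capitals mark any match to DR1, C/EBP (TTGCNNAA or TTACNNAA), PU.1 (AGGAAGTG), RUNX (such as TGTGGTTA) or AP-1 (TGAGTCA) on either strand. The region near Nrsn1 held none of these letters. The strongest member with an ordinary local background, in an intron of Ext1, is already among the DR1 windows, and it also held a C/EBP match.
region near Trps1, chr15:50697954-50698054: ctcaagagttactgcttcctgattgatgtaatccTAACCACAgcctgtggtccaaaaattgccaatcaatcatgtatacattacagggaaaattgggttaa
region near Nrsn1, chr13:25857533-25857633: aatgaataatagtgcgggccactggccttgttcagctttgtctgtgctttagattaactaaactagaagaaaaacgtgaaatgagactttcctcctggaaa
region near Lmo4, chr3:144049447-144049547: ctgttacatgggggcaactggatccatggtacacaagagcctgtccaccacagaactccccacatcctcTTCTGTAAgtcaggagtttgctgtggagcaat
region near Prep, chr10:44776313-44776413: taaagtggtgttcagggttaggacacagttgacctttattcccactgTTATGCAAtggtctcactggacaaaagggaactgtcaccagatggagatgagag

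Far regions were scarce for the space they come from. Sequence beyond 100 kb from a protein-coding TSS made up 41.4% of the sequenced bases of the genome, 1097 Mb, and held 2.71 shared regions per 10 Mb. Sequence closer to genes held 20.2 shared regions per 10 Mb, a density 7.44 times as high. The member nearest to the 100 kb limit lay 100.02 kb from Mitf, with −log10 q values of 5.22 (WT A) and 4.77 (WT G), and the first region left out lay 99.98 kb from Lipc, with 8.06 and 9.26 in the same order. Neither had a KO peak.

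**Figure D1:**
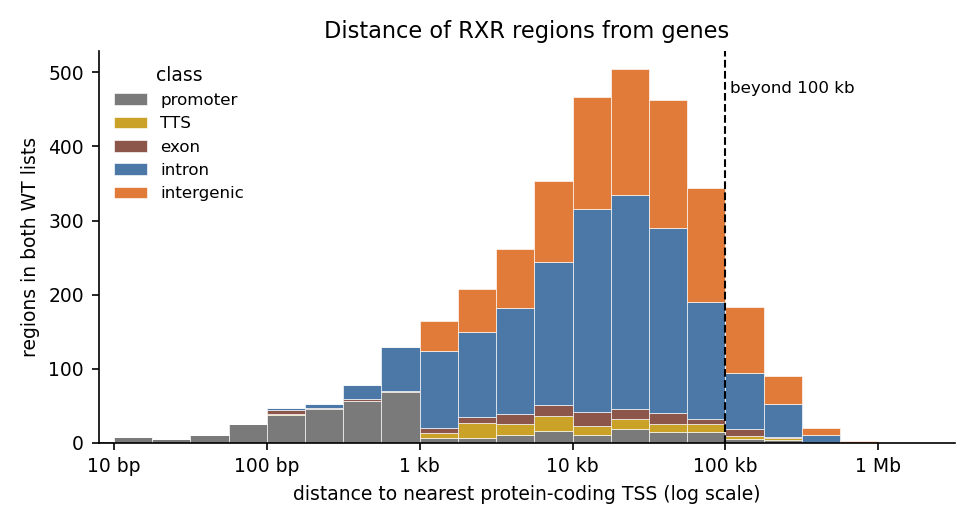
Number of the 3423 regions in both WT lists by distance from the nearest protein-coding TSS (log scale), stacked by the annotation class of the midpoint. The members lie to the right of the dashed line and are mostly intergenic (141) or intronic (130).

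Most members, 212 of 297, lay between 100 and 200 kb. The median distance was 156 kb, with 134 of 297 members between 100 and 150 kb, 85 beyond 200 kb, 27 beyond 300 kb and 3 beyond 500 kb. The rule itself places members in large gaps between gene starts. The protein-coding TSSs on either side were a median 518 kb apart, with a smallest spacing of 216 kb. By class, 141 (47.5%, 95% exact interval 41.7 to 53.3) were intergenic and 130 (43.8%, 38.0 to 49.6) intronic. The other classes held 11 in exons, 9 at promoters and 6 at transcription termination sites. A promoter here is that of a non-coding gene, because the rule excludes protein-coding starts. An intron did not always place a member in its nearest gene: 99 members lay inside a protein-coding gene, 65 of them inside the gene named as nearest and 34 inside another.

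Far from protein-coding starts was often close to a non-coding one. In the GENCODE M21 basic set, the nearest TSS of any gene was a median 26.2 kb away. Of the members, 80 lay within 10 kb of a TSS of this set and 20 within 1 kb, and 48 remained beyond 100 kb of all of them. The nearest such start belonged to a long intergenic non-coding RNA gene (lincRNA in the annotation) for 103 members, to a processed pseudogene for 52 and to a protein-coding gene for 23. At Dusp6, which encodes a phosphatase of ERK kinases, chr10:99459752-99460310 covered the start of the lincRNA gene Gm34983, 0.069 kb from it, and lay 197 kb downstream of Dusp6, with −log10 q values of 15.8 (WT A) and 11.8 (WT G). At Ptger4, the gene of the prostaglandin E2 receptor EP4, chr15:5494928-5496475 was 0.564 kb from the transcribed pseudogene 5430437J10Rik, with 22.0 and 24.8. Neither region held a KO peak.

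Among regions kept for a called peak in both WT lists, far ones had fold enrichments close to those of nearer ones. All of them had to pass the same calling threshold in WT, so similar values follow in part from the choice and are given as descriptions. The fold enrichment, ChIP pileup over local background at the summit, had a median of 7.04 in WT A (quartiles 5.93 and 7.99) and 7.54 in WT G (5.80 and 9.03). Intergenic regions within 100 kb, the most similar class, had medians of 7.11 and 7.69, so the ratio of far to nearer was 0.990 in WT A and 0.981 in WT G. The strongest 10% of all shared regions held 34 of 297 members by −log10 q in each library (11.4%, 8.06 to 15.6), beside 10.6% of the nearer intergenic regions in each. These values rest on few molecules. Derived fragment numbers at the summits ranged from 11 to 172 in WT A (median 17) and from 5 to 149 in WT G (median 11). The members were also about as wide (median 578 bp, nearer intergenic 575 bp), and 15 of 297 summit windows were mostly repeat sequence (5.05%, beside 7.47% of the nearer intergenic ones, a difference of −2.42 percentage points with a 95% Newcombe interval of −5.13 to 1.04).

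The rule requires a peak of both WT libraries but not that they share a summit. In 246 of 297 members each library had a single peak. The summits of the strongest WT A and WT G peak lay within 100 bp of each other in 152 members and farther apart in the others, and 131 far regions were left when the peaks had to overlap by 50% of both. Across the 297 members, which share these 2 libraries, Spearman's rho of the fold enrichment between WT A and WT G was 0.507 and Pearson's r of its logarithm 0.571, as descriptions only.

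Sites of high local background came first in the ranking. A background over 3 times the genome-wide level in at least 1 library was found at 8 of 297 members (2.69%) and at 7 of 937 nearer intergenic regions (0.747%), a difference of 1.95 percentage points (Newcombe interval 0.408 to 4.51). The leading one, chr17:39843045-39848837, 105 kb from Esp38 and in an exon of the lincRNA gene Gm26917, had −log10 q values of 54.5 (WT A), 96.2 (WT G), 63.3 (KO A) and 47.6 (KO G), on a local background of 21.5 to 26.8 times the genome-wide one. The second, chr3:5860318-5860819 near Gm8797, had 30.4, 43.4, 20.5 and 31.9 in the same order. At Esp38 the KO A value lay between the WT values and the KO G value below them, and at Gm8797 the KO G value lay between the WT values and the KO A value below them.

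Below these 2, the top of the ranking was made of regions with a background close to the genome-wide one. In an intron of Ext1, a glycosyltransferase gene of heparan sulphate synthesis, chr15:53138086-53140848 had −log10 q values of 34.2 (WT A), 34.7 (WT G) and 11.1 (KO G), with no KO A peak. Its fold enrichment was 16.5 (WT A), 18.7 (WT G) and 9.30 in KO G. In an intron of Trps1, which encodes a GATA-type repressor, chr15:50697178-50698501 had 27.2 (WT A), 25.3 (WT G) and 4.15 (KO G), again with no KO A peak. These regions were ranked by their WT values, and every member needed a peak in both WT lists but none in KO, so WT values above KO values follow in part from the choice and are given as descriptions.

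The next members lay outside protein-coding genes. The region chr13:25856373-25858572, 587 kb upstream of Nrsn1, a neuronal vesicle protein gene, had −log10 q values of 25.9 (WT A), 28.05 (WT G), 6.15 (KO A) and 6.31 (KO G). Next came chr3:144049006-144049919, 153 kb downstream of Lmo4, a LIM-only cofactor gene, with 29.97 and 24.8 in WT and 4.15 in KO G. The region chr10:44775722-44776827 lay 291 kb upstream of Prep, a peptidase gene, in an intron of the non-coding gene Gm47392, and had 32.8 and 18.8 in WT and 5.20 in KO G. Thus 1 of these 3 had a peak in both KO lists, and 2 had one in KO G alone.

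Ptger4 had a second strong region, chr15:5446337-5447593, 203 kb upstream, with −log10 q values of 20.3 (WT A), 25.3 (WT G) and 4.15 (KO G) and no KO A peak. The tenth, chr8:126831912-126834041, lay 113 kb downstream of Tomm20, which encodes a mitochondrial import receptor, with 18.7, 25.7 and 3.88 in the same libraries. Of the 8 regions among the first 10 with a background at or under 3, all but the promoter-class one near Ptger4 had a KO G peak, and 1 had a KO A peak.

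The question for KO libraries was whether a peak called in WT recurred where RXRα and RXRβ had been deleted. A KO peak was found at 24 of 297 far regions (8.08%, 5.25 to 11.8), beside 5.87% of all 3423 shared regions. The share depended on how far regions were defined: it was 14.5% of 131 when WT peaks had to overlap by 50% of both, 3.45% of the 695 far peaks of WT G and 5.47% of the 439 of WT A. A KO A peak lay at 10 members (3.37%, 1.63 to 6.10; all regions 2.16%) and KO G at 22 (7.41%, 4.70 to 11.0; all regions 5.35%). Both KO lists had one at 8 members (2.69%, 1.17 to 5.24; all regions 1.64%). The share with any KO peak was 6.72% in nearer intergenic regions, a difference of 1.36 percentage points (Newcombe interval −1.79 to 5.29), so the comparison does not show that far regions kept more or fewer KO peaks than these. Against intronic regions within 100 kb (5.22%) the difference was 2.86 points (0.00973 to 6.65), an interval that only just leaves out 0. Of 10 properties compared with 3 groups of nearer regions, this was one of 5 intervals that did not hold 0. The others were the same comparison for KO G and the 3 for local background.

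High local background moved with the KO peaks. Of the 8 members with a background over 3 times the genome-wide one, 7 had a KO peak, and of the other 289 members 17 did (5.88%, 3.46 to 9.25), which is close to the 6.67% of nearer intergenic regions treated the same way. In KO A the count fell from 10 to 5.

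KO peaks concentrated at the strongest WT regions. With members ordered by the sum of their WT ranks, 21 of the strongest 99 had a KO peak (21.2%, 13.6 to 30.6), 3 of the middle 99 (3.03%, 0.629 to 8.60) and 0 of the weakest 99, for which the exact interval reached 3.66%. The lists hold called peaks only, so KO signal under the calling threshold was not measured. The median −log10 q in WT A was 13.5 in the strongest 99 and 5.22 in the weakest 99. KO summits with a low background held 13 to 14 fragments in KO A and 8 to 17 in KO G.

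**Figure D2:**
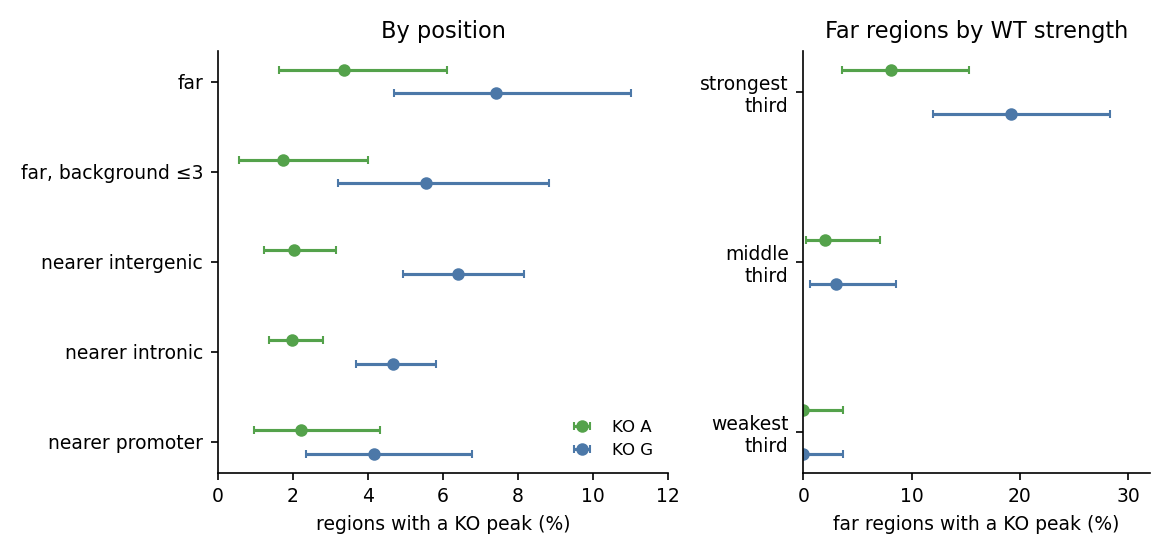
Percent of regions with a peak in KO A (green) and in KO G (blue), with 95% exact intervals: left, far regions (all, and those with a local background at most 3 times the genome-wide one) beside nearer classes; right, far regions in 3 groups of 99 by WT peak strength. Of the 24 members with a KO peak, 21 are in the strongest group, and the far share without high-background sites is close to that of nearer intergenic regions.

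Of the 8 members with a peak in both KO lists, 4 had a high background: those near Esp38 and Gm8797, chr18:68692067-68692299 near Mc2r and chr6:3201315-3201581 near Samd9l. At Samd9l the −log10 q values were 10.9 and 6.60 in WT and 11.1 and 9.71 in KO, so that the groups overlapped. The other 4 included the region near Nrsn1 and 3 more. At App, the amyloid precursor gene, the intronic chr16:85071544-85072848 had −log10 q values of 32.8 (WT A), 15.9 (WT G), 7.30 (KO A) and 5.20 (KO G). Upstream of Klf7, a Krüppel-like factor gene, chr1:64300977-64302522 had 18.2, 14.5, 6.15 and 6.31. Downstream of Fzd1, a Wnt receptor gene, chr5:4530159-4531190 had 17.0, 15.9, 7.30 and 4.15.

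A peak in only 1 KO list was seen at 14 members for KO G and at 2 for KO A. Among these 16, the highest KO value, 16.4 in KO G, was at chr13:44869571-44869879, in an intron of Jarid2 and 132 kb from Dtnbp1, where WT A had 11.9 and WT G 7.68 and the local background reached 3.01 times the genome-wide one. The intronic region of Gphn, the gephyrin gene, had 11.1 in KO G beside 30.1 and 15.7 in WT, also with a background of 3.01. The region 241 kb from Ccdc3 had 9.12 in KO A beside 11.3 and 9.96, on a background of up to 8.77 times the genome-wide one. Beside the Ext1 region, those with an ordinary background were led by one in the Cers6 intron with 7.40 in KO G beside 15.7 and 6.88 in WT, and near Tbl1xr1 with 7.30 in KO A beside 10.2 and 9.26. Cers6 encodes a ceramide synthase and Tbl1xr1 a subunit of nuclear receptor corepressor complexes. Near Rmdn2, KO G had 6.31 beside 20.7 and 20.3, and near Hlx, a homeobox gene, 5.20 beside 25.9 and 15.9, a KO value that the Prep region shared. The next 4 regions shared a value of 4.15, those near Trps1, Lmo4, Ptger4 and Lpp.

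Counted by peak instead of by region, 439 of 4751 WT A peaks lay beyond 100 kb (9.24%), 695 of 9766 in WT G (7.12%), 10 of 83 in KO A (12.05%) and 24 of 208 in KO G (11.5%). All 10 KO A peaks and all 24 KO G peaks that lay this far overlapped a member. Both KO shares lay above both WT shares, but the KO A interval held both WT shares and the KO G interval held that of WT A. The mean share was 8.18% ± 1.502 in WT and 11.8% ± 0.360 in KO (SD, n = 2 each). The difference of 3.61 percentage points had p = 0.333 in a two-sided exact permutation test, the smallest p that 2 against 2 libraries allow. Without peaks of high local background the difference was 0.764 points (exact permutation p = 0.667), the WT shares being 9.18% (A) and 7.07% (G) and the KO shares 7.35% (A) and 10.4% (G), so that the groups overlapped.

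**Figure D3:**
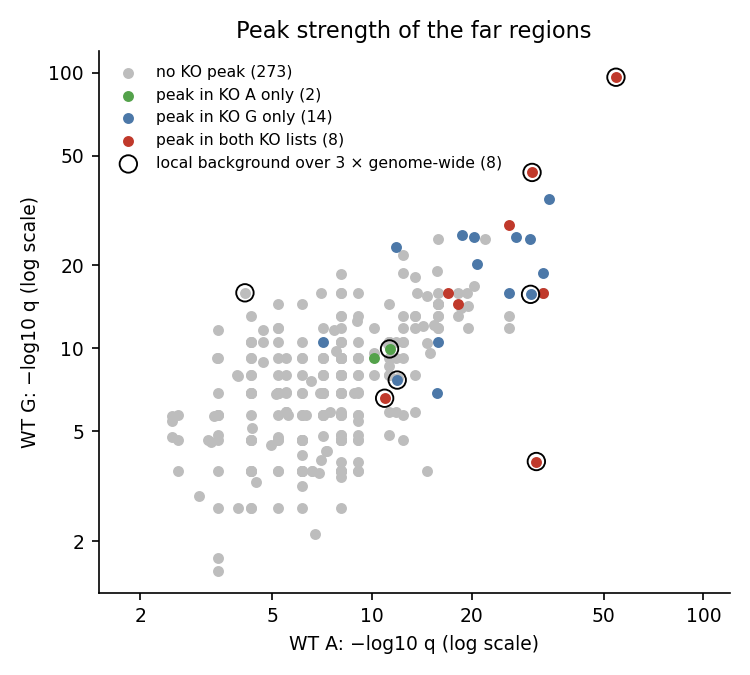
Peak strength of the 297 far regions as −log10 q in WT A and WT G (log scales), coloured by the KO lists that hold a peak there. Black rings mark the 8 members with a local background over 3 times the genome-wide level. Coloured points lie towards the upper right, and 7 of the 8 ringed points are coloured.

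Taking members within 50 kb of the next as one locus, the 297 formed 194 loci. Of these, 135 held a single member and 59 at least 2, 162 members in all (54.5%), and the same count was not made for nearer regions. The nearest genes numbered 179, which is 0.816% of the 21924 protein-coding genes, where 1933 genes (8.82%) were nearest to a shared region at any distance. For 118 of the 179 genes there was 1 far region, and for 102 every shared region lay far.

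Trib1, which encodes a pseudokinase that directs C/EBPα to degradation, had the most, with 10 far regions among its 16 shared regions. Of these, 2 lay upstream, the farther at 137 kb, and inside Nsmce2, and 8 lay downstream between 102 and 180 kb. The 2 strongest were neighbours. The region chr15:59773647-59774601, 125 kb downstream, had −log10 q values of 20.3 (WT A) and 16.8 (WT G), with 35 and 19 fragments, and chr15:59772331-59773335 had 25.9 and 11.8, with 34 and 14 fragments. The weakest by WT A, chr15:59511750-59511975, had 3.27 and 4.60. The locus ran on to chr15:59865822-59867116, assigned to 4933412E24Rik, with 19.4 and 11.8, which carries the first DR1 printed above. None of the 12 regions had a KO peak, beside 8.08% of all members and 5.87% of all shared regions. They are too few to show a lower share.

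Klf14, Zfp608 and Prdm1 followed by number. Klf14, a Krüppel-like factor gene, had 6 far regions and none nearer, all upstream, 3 of them at 120 to 122 kb and 3 at 154 to 156 kb in the non-coding gene Lncpint. Their −log10 q ran from 3.43 to 10.2 in WT A and from 3.61 to 9.26 in WT G. Zfp608, a zinc finger gene, had 6 of 14, 4 downstream at 137 to 144 kb and 2 upstream at 400 and 419 kb. Prdm1, the gene of the repressor BLIMP-1, had 5 of 6, all upstream at 131 to 244 kb, the strongest with 8.06 in WT A and 9.26 in WT G and a DR1 printed above. None of these 17 regions had a KO peak, again too few to show a share below the 8.08% of all members or the 5.87% of all shared regions.

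Nrip1 encodes RIP140, a corepressor that binds ligand-activated nuclear receptors, and all 4 of its shared regions were far. The strongest, chr16:76527043-76527811, lay 154 kb upstream, with −log10 q values of 15.8 (WT A) and 24.8 (WT G). Its 2 upstream neighbours, with 13.5 and 18.2 and with 9.11 and 4.64, both carry a DR1 printed above. The fourth lay 148 kb downstream, with 11.8 and 10.5. No KO peak was found at any of the 4, where 8.08% of all members and 5.87% of all shared regions had one.

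Nrip1 was one of 9 genes tied at 4 far regions. The others were Mreg, Zeb2, Rreb1, Ado, Dock4, Bhlhe40, Ly86 and Klhl25, of which the first 3 are described here as those with the strongest regions. Mreg encodes melanoregulin, a protein of organelle transport, and 3 of its regions lay 105 to 108 kb downstream, with −log10 q values of up to 15.8 (WT A) and 14.5 (WT G). Zeb2, a zinc finger homeobox gene of macrophage identity, had 3 regions at 159 to 162 kb upstream and the farthest member of all, chr2:46370616-46371519, 1254 kb upstream, with 15.8 and 14.5. At Rreb1, a gene of a RAS-responsive zinc finger factor, chr13:37619692-37620934 had 11.8 (WT A) and 23.3 (WT G), and KO G alone of the KO lists had a peak, with 1.39. It was the only one with a KO peak among the far regions of the 13 genes with at least 4. Of all members, 8.08% had a KO peak, and of all shared regions 5.87%.

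**Figure D4:**
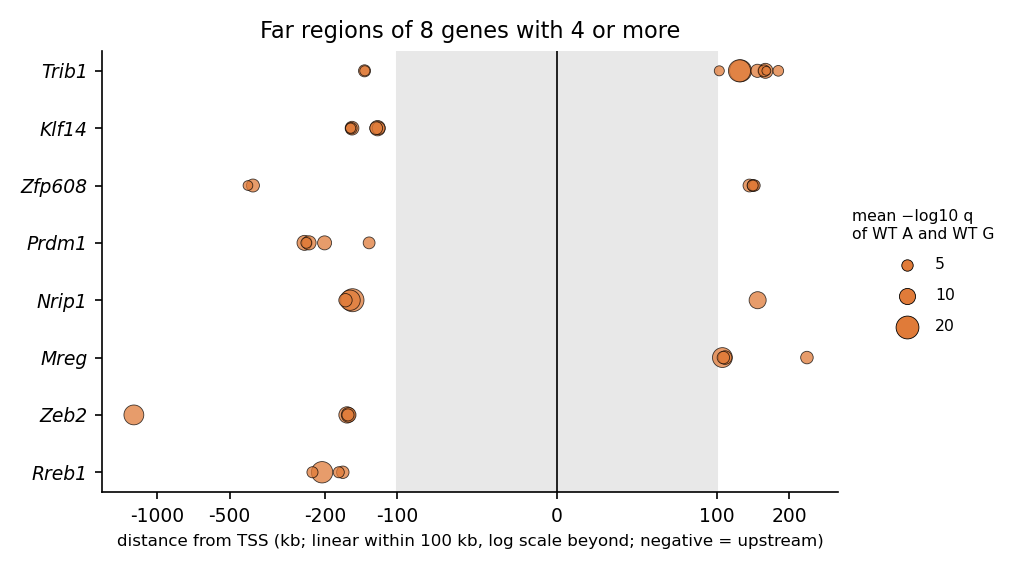
Far regions of Trib1, Klf14, Zfp608 and Prdm1, and of the first 4 by rank of the 9 genes tied at 4 far regions, by distance from the TSS in kb (linear within 100 kb, log scale beyond, negative upstream). Circle area is proportional to the mean −log10 q of WT A and WT G. The grey band is the 100 kb on each side that the rule leaves out; Klf14, Prdm1, Zeb2 and Rreb1 have all their members upstream, and Trib1 has most of them downstream.

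After the one upstream of Zeb2, the members farthest from a TSS were chr15:19857491-19858028, 809 kb from Acot10, an acyl-CoA thioesterase gene, with −log10 q values of 8.06 (WT A) and 5.87 (WT G), and the region near Nrsn1. They were followed by chr10:73341949-73342234, 480 kb from the nearest start of the protocadherin gene Pcdh15 and within that gene's annotated extent, with 6.16 and 4.12, and chr15:30610365-30610827 in an intron of Ctnnd2, a delta-catenin gene, with 4.31 and 3.61. Only the Nrsn1 region had KO peaks. By distance, a KO peak was found at 10 of 134 members between 100 and 150 kb, 4 of 78 between 150 and 200 kb, 9 of 58 between 200 and 300 kb and 1 of 27 beyond 300 kb, with intervals that overlap.

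Genes of 6 lists, chosen for AM biology with results of these data known, were counted where they were nearest to a far region. Of all protein-coding genes, 0.816% were nearest to a far region and 8.82% to a shared region at any distance. Only a gene that borders a wide gap between gene starts can be nearest to a far region, and these shares do not allow for that. The counts are therefore no test of enrichment. Of 50 transcription factors of macrophages and AMs, 12 had one, and 32 had a shared region at any distance. Beside Bhlhe40, Zeb2 and Zfp608, they were Runx1, Klf4, Klf6, Maf, Irf2bp2, Fosl2, Mitf, Hif1a and Myc. Bhlhe40, a repressor gene, had 4 in Itpr1, the strongest at 194 kb upstream with −log10 q values of 9.01 (WT A) and 12.6 (WT G). Runx1, a lineage factor of blood cells, had 2, the stronger at 386 kb upstream with 12.4 and 18.8. All 3 shared regions of Klf4 were far, the first by rank with 8.06 and 6.88. The only shared regions of Maf, at 284 kb, and of Hif1a, at 122 kb, were far ones. None of the strongest far regions of these 12 genes had a KO peak, beside 8.08% of all members and 5.87% of all shared regions. With 12 regions a lower share could not be shown.

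Of 30 targets of RXR partner receptors and retinoid genes, 2 had a far region (6.67%) and 20 a shared one. Dhrs3, which encodes a retinaldehyde reductase, had 1 far region of 11, chr4:145018804-145019803, 126 kb downstream and in an intron of Vps13d, with −log10 q values of 15.7 (WT A) and 19.01 (WT G). Mylip, an LXR target that encodes a ligase degrading the LDL receptor, had 1 of 2, with 5.503 and 5.87 and a DR1 of 2 mismatches at its summit. Of 32 feedback regulators of signalling, 14 had a shared region at any distance and 3 had a far region: Trib1, Dusp6 and Zfp36l1, an mRNA decay factor. No far region was nearest to any of 26 cytokine and growth factor receptors, 14 surface markers of AMs or 12 genes of monocytes and other macrophages, of which 11, 11 and 2 had a shared region at any distance. With 0.816% of all genes nearest to a far region, lists of these sizes could not show a lower share. These lists were chosen with results of these data known, and the counts are descriptions.

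Sequence at the summits was compared with the same regions' flanks, since the rule did not use it. Windows of 101 bp centred on the summit of the strongest WT peak were scanned for 18 motifs on both strands, and so were windows 500 bp to each side. A DR1 with at most 2 mismatches was found at 19 of 297 summits (6.40%, 3.90 to 9.81), and a mean of 1.18% of the flanks held one, a ratio of 5.43 (adjusted p = 0.0406, exact McNemar test with the larger p of both flanks and Benjamini-Hochberg adjustment over 18 motifs). Among all shared regions the summit share was 6.34%. C/EBP was found at 64 summits (21.5%, 17.0 to 26.7) and 11.4% of flanks, with the same adjusted p of 0.0406 in the exact test, and at 19.4% of summits of all shared regions. These 2 of 18 motifs passed. The DR1 call was lost with other summits and with either WT library alone, and the cause was not tested. Its ratio was 3.33 at the WT A summits of the same members (adjusted p = 0.602), 2.67 at their WT G summits (adjusted p = 0.75), 1.905 in all far peaks of WT G alone (adjusted p = 1.0) and 2.71 in those of WT A alone (adjusted p = 0.722), each by the exact test. Both calls were close to the threshold: the DR1 call held in 5 of 13 other settings that gave a ratio and the C/EBP call in 8 of 15, with summit shares above the flanks in each. With at most 1 mismatch, a DR1 was found at 4 summits and 0 flanks (adjusted p = 0.45 in the exact test), and without mismatch at none.

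AP-1, RUNX and PU.1 did not pass in these windows. AP-1 was found at 16 summits (5.39%; all shared regions 5.49%) and 1.01% of flanks, with adjusted p = 0.160 in the same exact test. It passed in 4 of 15 other settings, among them windows of 100 bp to each side (adjusted p = 0.00500) and the WT G summits (adjusted p = 0.00934), both on all 297 members and by the exact test. RUNX (TGTGGTTT, TGTGGTTA, TGCGGTTT or TGCGGTTA) was found at 15 summits (5.05%; all shared regions 4.32%) and 1.52% of flanks, and PU.1 at 12 (4.04%; all shared regions 4.62%) and 1.35% of flanks, both with adjusted p = 0.282 in the exact test. At least 1 of these 5 motifs was present at 108 of 297 summits (36.4%; all shared regions 35.0%), 2 or more at 17, and DR1 together with C/EBP at 1, in the Ext1 intron.

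Repeats of other spacing were not above the flanks by the test. DR5 was found at 8 summits (2.69%, beside 2.57% of all shared regions) and DR2 at 8 (2.69%, beside 2.54%). DR3 was found at 7 (2.36%, beside 2.02%), DR0 at 5 (1.68%, beside 2.02%) and DR4 at 4 (1.35%, beside 1.90%). Flanks of the far regions held a mean of 0.842% (DR5), 1.35% (DR2), 1.18% (DR3), 2.02% (DR0) and 1.18% (DR4). Among all shared regions, DR2, DR3, DR4 and DR5 passed the same exact test (adjusted p at most 0.0375). A DR1 of the hexamer read backwards, scanned as a control, was found at 2 summits (0.673%, beside 1.11% of all shared regions) and 1.68% of flanks. A direct repeat of any spacing from 0 to 5 was present at 41 summits (13.8%; all shared regions 14.7%). The motif of CTCF, a factor of chromatin boundaries, was found at 3 summits (1.01%, beside 1.02% of all shared regions) and 1.68% of flanks. The E-box CACGTG was found at 1 summit (0.337%, beside 1.81% of all shared regions) and 0.842% of flanks.

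**Figure D5:**
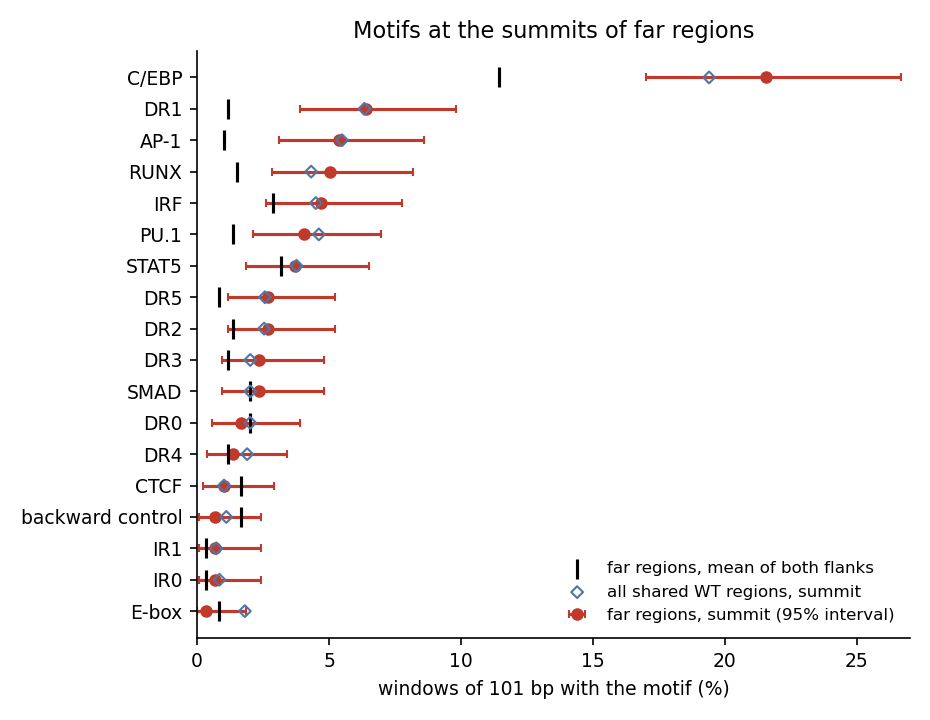
Share of 101 bp windows with each of 18 motifs at the summits of the 297 far regions (red, 95% exact intervals), in their flanks (black bars, mean of both sides) and at the summits of all 3423 shared regions (blue diamonds). DR1 at 6.40% and C/EBP at 21.5% lie above their flanks, and the blue diamonds lie within the red intervals for all 18 motifs.

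Motif content did not set far regions apart from nearer ones. The share with a DR1 differed from that of nearer intergenic regions (7.26%) by −0.860 percentage points (Newcombe interval −3.78 to 2.83), and that with C/EBP (19.6%) by 1.91 points (−3.14 to 7.49). For PU.1 the difference was −1.51 points (−3.89 to 1.65), for RUNX 0.782 (−1.69 to 4.09) and for AP-1 −0.589 (−3.25 to 2.87). Each interval held 0 and does not show that the shares were equal. Among the members, those with a DR1 had a lower median fold enrichment in WT A (6.72, beside 7.08 without one) and a higher one in WT G (7.74, beside 7.48), and 1 of 19 had a KO peak, beside 23 of 278. Members with C/EBP had 7.31 and 7.74 beside 6.72 and 7.09 without, and 8 of 64 had a KO peak (12.5%, 5.55 to 23.2), beside 16 of 233 (6.87%, 3.98 to 10.9).

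The DR1 windows printed above show how the letters went with the values. The first 4, with 1 mismatch, had −log10 q values of 19.4 (WT A) and 11.8 (WT G) (4933412E24Rik, in the Trib1 locus), 11.8 and 5.87 (an exon of Trps1), 4.31 and 10.5 (156 kb upstream of Bcl2l14 and inside Etv6, a gene of an ETS repressor) and 6.16 and 4.64 (340 kb downstream of Sox4). No far region held a DR1 without mismatch, and 3 of all 3423 did. The region near Cradd had 14.7 and 15.5 and that near Pik3r1, the gene of a PI3-kinase regulatory subunit, 12.4 and 10.5. Those near Auh and Mllt3 and the second of Nrip1 had at most 9.11 (WT A) and 8.04 (WT G). A KO peak was seen at 1 of the 12, the Ext1 region.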

How the data were processed

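RXRα HT-ChIPmentation was measured in AMs from 2 WT and 2 KO libraries, with an input sample as control. The authors used Cutadapt for trimming, Bowtie2 for alignment (mm10) and, after duplicate removal, called peaks library by library with MACS3 at a q threshold of 0.05. The deposited lists give the fold enrichment at each summit as a ratio to local background, and the −log10 p and −log10 q. The deposited score, a multiple of −log10 q, was not used. The input's own signal was not analysed here. In the peak lists, depth is known only from fragments per summit, derived from fold, p and a pseudocount of 1, which solved every peak within 0.01.

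Distances used all protein-coding starts of the GENCODE M21 basic set. Classes were assigned at the midpoint in the order promoter (1 kb upstream to 100 bp downstream), termination site, exon, intron and intergenic. High local background means over 3 times the genome-wide one in any library. Motifs were scanned in 101 bp windows, with flanks 500 bp away, and tested by the exact McNemar test, taking the larger p of both flanks, adjusted over 18 motifs. Exact binomial (Clopper-Pearson) and Newcombe intervals are at 95% and cover counting error only, since regions are not replicates. Sequences were read from the GRCm38 genome of RefSeq. The analysis used Python 3.11.15, numpy 2.4.6, scipy 1.17.1 and matplotlib 3.10.9, and was tested on simulated data.

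Regions named are the 10 with the lowest sum of WT ranks, the 5 farthest, those with a peak in both KO lists, the 10 highest with a peak in 1 KO list (4 tied at the end are all named), the 12 best DR1 matches, without chromosome 18, from which no sequence is printed (1 match, near Arhgap26, would have ranked among them), and those next to the limit. Genes named are 8 nearest to the most members, with 9 genes tied at 4 members ordered by their strongest region, and those of 6 lists. Members and lists were chosen with earlier results of these data known. Alternatives changed the overlap, q, gene set, limit, libraries, motif settings and background filter.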

Additional observations from a re-analysis of the deposited data

How the results depend on the processing

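The number of far regions was 131 with an overlap of 50% of both peaks, 187 with −log10 q of at least 5, 48 with starts of any biotype, 734 with a limit of 50 kb and 85 with 200 kb. It ranged from 439 to 695 when 1 WT library was used alone. The share that lay far was 1.402% with any biotype, 7.57% with RefSeq genes, 21.4% and 2.48% with limits of 50 and 200 kb, and 7.12% to 9.24% with 1 WT library. With sets of gene starts added after seeing the data, there were 394 far regions with 1 start per gene and 222 with the comprehensive set. The share with a KO peak was 14.5% with the 50% overlap, 3.45% to 5.47% with 1 WT library and 3.37% (without KO G) to 7.41% (without KO A) with 1 KO library. The intergenic share was 37.5% with any biotype, 54.1% with 200 kb and 41.6% to 44.9% with 1 WT library. Nearest genes numbered 104 with the 50% overlap, 37 with any biotype, 430 with 50 kb, 64 with 200 kb and 228 to 289 with 1 WT library. The ratio of median fold enrichment in WT A was 0.9503 with −log10 q of at least 5, 0.945 with any biotype, 1.0 with RefSeq genes, with both other limits and without high background, and 0.951 without WT G. In WT G it was 1.08 with the 50% overlap, 1.0 with −log10 q of at least 5 and without WT A, 1.02 with any biotype, 1.005 with RefSeq genes, 0.995 with 50 kb and 0.964 with 200 kb. The count of motifs passing the test against the flanks was 0 with the 50% overlap, −log10 q of at least 5, a limit of 200 kb, at most 1 or 0 mismatches, or windows of 25 bp to each side, where the DR1 ratio was 9.0 with the 50% overlap, 6.0 with the q limit, 3.33 with 200 kb and 9.0 with 25 bp. It was 4 with 50 kb, 1 with the WT A summits (C/EBP), 1 with the WT G summits (AP-1) and 2 to 3 with 1 WT library, DR1 not among them. Fewer regions enter under the stricter overlap, q and distance, and for the other settings the cause was not tested. The KO minus WT share of peaks stayed above 0, from 0.764 to 8.28 points. With a replicate block, taking the letters A and G as pairs, it was 3.61 points (2.81 for A, 4.42 for G), where the smallest exact p that 2 pairs allow is 0.5. The labels do not say that the letters pair the libraries.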
